A study of Mus musculus with 12 samples.

Results

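The transcript clusters described here carried no gene symbol in the deposited table and were nonetheless measured above the background of the array. A transcript cluster is a group of probes that the array maker assigned to one transcribed locus, each with an identifier beginning TC that holds a chromosome and a running number. The members were chosen by annotation and by level: the symbol of a cluster was empty, and its mean log2 signal over the 12 arrays was 6.5 or more, a line above the brightest background control, which averaged 5.76. Of 65956 clusters, 25833 had no symbol, and 2802 of those were members. The levels below are thus a description, and the choice did not use the differences between groups. In all 4 groups the mean of 2408 members was at least 6.5, while 394 fell under that line in at least 1 group.

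OT-I cells are CD8 T cells of mice that carry a transgenic T cell receptor against one ovalbumin peptide, and the labels give the cell type as splenocyte. They were stimulated for 4 days with Y3 peptide plus corticosteroid, with Y3 peptide alone, with N4 peptide plus corticosteroid, or with N4 peptide alone, with 3 arrays per group. The receptor binds N4 strongly and its variant Y3 more weakly. All groups share the receptor transgene and a peptide stimulation, and no unstimulated group was analysed here. The sources used here gave neither the name and dose of the corticosteroid, nor the age of the mice, nor whether the biological replicates came from separate mice. The p-values therefore measure the spread between these arrays, which may be technical.

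Most of the mammalian genome is transcribed outside the exons of named genes. Long intergenic RNAs are made from their own loci between genes, antisense RNAs run against a gene on the opposite strand, and RNA from the introns of a gene is normally spliced out and degraded within the nucleus. A probe placed in an intron cannot tell a separate transcript from the unspliced precursor of the host gene. PIWI-interacting RNAs (piRNAs) are small RNAs of the germline that silence transposons, and their catalogued sequences are largely repeats, so a probe for one of them reads any RNA that holds a copy of the repeat.

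By the descriptions in the table, 1184 of the 2802 members were sense transcripts of the NONCODE catalogue that lie within a gene without overlapping its exons. Another 562 were intergenic NONCODE transcripts, and 383 were intergenic transcripts from a separate catalogue named Luo in the table. Small RNAs of the oocyte or germline made up 392 members, of which 206 were named as oocyte piRNAs, 154 as oocyte clustered small RNAs, 25 as piR entries and 7 as germline small RNAs. A further 184 were antisense transcripts. The remaining members were 50 cDNAs and other entries, 14 Ensembl entries of miRNA type, 13 protein-coding Ensembl entries on unplaced scaffolds, 11 retroelements, 6 other Ensembl entries and 3 T cell receptor segments. The chromosome could be read from the identifier of 2762 members and ranged in number from 191 on chromosome 2 and 187 on chromosome 10 to 6 on the Y chromosome and 4 on the mitochondrial genome.

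Not all members were separate measurements. Of the 2802, 318 had exactly the same 12 signals as another member, in 46 shared profiles of up to 63 members each, which left 2530 distinct profiles. The 392 small RNAs of repeats held only 133 distinct profiles, under 135 family names.

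The cells carried the markers of CD8 T cells, the type of OT-I cells. All 8 CD8 T cell markers (Cd8a, Cd8b1, Cd3e, Cd3d, Cd3g, Cd2, Lck and Zap70) had means of 11.03 to 16.97 (log2 signal). None of the 3 CD4 and regulatory T cell markers, 6 dendritic and myeloid markers, 2 red cell markers on the array or 3 neutrophil markers reached 6.5. Of the 6 B cell markers only Cd79b did, at 7.07, and of the 3 NK markers only Eomes, a transcription factor that activated CD8 T cells also make, at 7.97.

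Among the 12 arrays, replicates 1 and 3 of both N4 groups stood apart, each on a different component. On the first principal component of the members, which held 66.6% of the variance, N4 replicate 1 (-39.6) and N4 plus corticosteroid replicate 1 (-34.8) lay lowest, and the other arrays lay between -11.2 and 34.4. On the second component, with 13.5% of the variance, N4 replicate 3 (-21.7) and N4 plus corticosteroid replicate 3 (-21.0) lay apart from all others, which lay between -0.90 and 8.92.

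The members were dimmer than clusters with a symbol. Their mean levels had a median of 7.73 (log2 signal), with quartiles at 6.96 and 9.61, against a median of 9.29 and quartiles at 7.75 and 11.55 for the 14085 clusters with a symbol that passed the same line. Of the members, 1553 were under 8 and 111 above 15. Just inside the line, TC1300000966, TC0500000376 and TC1800000296 averaged 6.5003, 6.5008 and 6.5010. Just outside it, TC1600002048, TC0900002627 and TC1600001474 averaged 6.4982, 6.4980 and 6.4980. The suffix of the identifiers is left out here.

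The brightest members sat at the top of the scale. TC0100002078, an intergenic transcript, averaged 19.79, and the other 9 of the 10 brightest averaged 18.95 to 19.60. Of these 10, TC0600002513, TC1400002532, TC0100000357 and TC0100000355 carried the same cDNA clone description although their identifiers name chromosomes 6, 14 and 1. TC0700003630, a transcript of the B1 short interspersed repeat, averaged 18.95. Across the 4 comparisons of 2 groups, the differences of these 10 lay between -0.07 and 0.19, and none passed the test. The highest was that of TC0100002077, at 0.19 ± 0.09 (log2, SE, n = 3 per group) for Y3 plus corticosteroid minus N4 plus corticosteroid. Both it and TC0100002078 are numbered after Gm10925, which averaged 19.72.

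The clearest pattern among the members was a difference between the peptides. The median member signal of the 3 arrays, in replicate order, was 7.82, 8.16 and 8.09 in Y3 plus corticosteroid, 7.60, 7.81 and 8.12 in Y3 alone, 7.41, 7.67 and 7.80 in N4 plus corticosteroid, and 7.31, 7.63 and 7.82 in N4 alone. Under corticosteroid the replicate numbers were taken to pair the groups, although the labels do not state what a number marks. The pairing rests on correlations of the arrays' deviations from group means, of 0.51, 0.25 and 0.21. In 3 of 3 such pairs the Y3 array was higher. Without corticosteroid the groups overlapped, with N4 replicate 3 above Y3 replicates 1 and 2. Clusters with a symbol had array medians between 9.21 and 9.37. The negative controls of the array moved the same way as the members, by a smaller amount, with 0.13, 0.30 and 0.16 within pairs under corticosteroid. Their medians were 5.85, 6.09 and 6.02 in Y3 plus corticosteroid, 5.75, 5.77 and 6.07 in Y3 alone, 5.72, 5.79 and 5.86 in N4 plus corticosteroid, and 5.58, 5.74 and 5.95 in N4 alone. Whether the rise in background had a part in the members' difference was not tested.

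**Figure D1:**
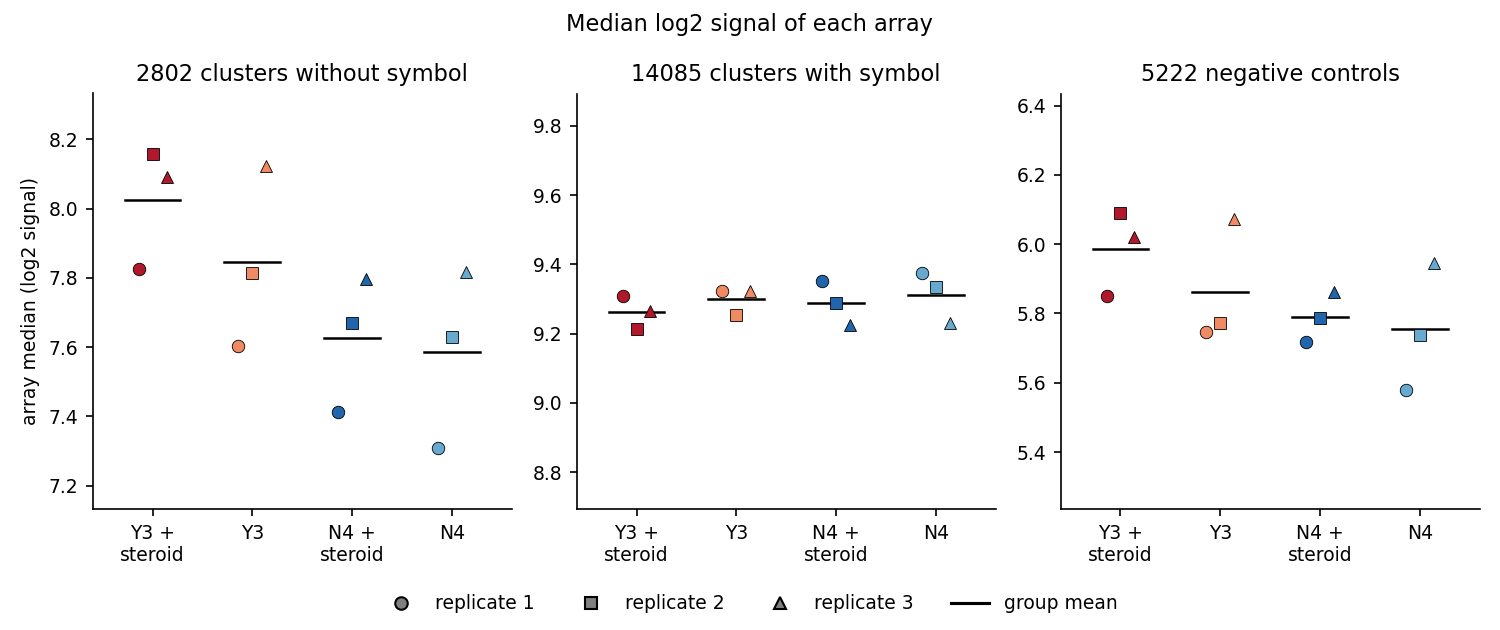
Median log2 signal of each array over the 2802 members (left), the 14085 clusters with a symbol at 6.5 or more (middle) and the 5222 negative controls (right), with a point per array, a shape per replicate number and a line at the group mean. Every panel spans the same height in log2 units. In the left panel the Y3 plus corticosteroid arrays lie higher than the N4 plus corticosteroid arrays on average, and the groups without corticosteroid overlap.

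Under corticosteroid, Y3-primed cells had higher signals than N4-primed cells for most members. The median log2 difference, Y3 plus corticosteroid minus N4 plus corticosteroid, was 0.40 over the members and 0.42, 0.50 and 0.33 within the 3 replicate pairs, with 2383 of 2802 (85.0%) above 0. Over all clusters the median was 0.01 and 53.6% were above 0, and over clusters with a symbol at 6.5 or more the median was -0.04 and 45.2% were above 0. The median of the 2408 members at 6.5 or more in every group was 0.38. Over the 2530 distinct profiles it was 0.35. The median over all members was 0.30 without N4 plus corticosteroid replicate 1, 0.47 without replicate 3 of that group and 0.49 without Y3 plus corticosteroid replicate 1. By level, the median difference of the members was 0.33 at 6.5 to 8, 0.45 at 8 to 10, 0.92 at 10 to 12 and 0.27 above 12, where clusters with a symbol of the same levels had -0.01, -0.05, -0.08 and -0.05. The 345 members at 10 to 12 held 217 distinct profiles, whose median was 0.58. In bulk RNA, more cells that make a transcript and more of it per cell cannot be told apart. Of the 3 NK markers, Eomes, Klrb1c and Ncr1 differed by 2.40, 1.06 and 0.16, with a list mean of 6.22 to 6.54 in Y3 plus corticosteroid arrays and 4.88 to 5.52 in N4 plus corticosteroid arrays. Ncr1, the defining receptor of NK cells, averaged 4.02 over all arrays, near the bottom of the scale. Of the 8 CD8 T cell markers 7 were above 0, with list means of 14.71 to 14.93 in Y3 plus corticosteroid arrays and 14.30 to 14.66 in N4 plus corticosteroid arrays. All 6 B cell markers were also above 0, Cd79b at 0.55, with list means of 4.74 to 4.91 in Y3 plus corticosteroid arrays and 4.59 to 4.79 in N4 plus corticosteroid arrays, and the part of these cell types in the members' difference was not tested.

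Limma called 5 members between these 2 groups, all higher in Y3 plus corticosteroid, where 54 of all 65956 clusters (0.0819%) were called and 0.0394% were called higher. Of the 2408 members at 6.5 or more in every group, 2 were called. TC0100002221, TC0100002220 and TC0200002897 averaged under 6.5 in N4 plus corticosteroid, so their higher groups carried them over the line. TC0100002221, a sense transcript without exon overlap, had 7.90, 8.33 and 7.98 (log2 signal) in Y3 plus corticosteroid, against 6.09, 6.42 and 6.26 in N4 plus corticosteroid. It rose by 1.81 ± 0.23 (log2, SE, n = 3 per group), or 3.51-fold, with an adjusted p of 0.0302. TC0100002220, numbered just before it, had 7.72, 8.04 and 7.36 in Y3 plus corticosteroid and 5.996, 6.20 and 6.06 in N4 plus corticosteroid, a difference of 1.62 ± 0.20 (limma, adjusted p = 0.0270). Both are numbered after Aff3, a nuclear protein of the transcription elongation machinery, whose own cluster differed by 1.502 ± 0.28. The groups did not overlap for either member, which the choice of named members required.

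The other 3 called members were of mixed kinds. TC0200002897 had 7.72, 8.23 and 7.77 in Y3 plus corticosteroid and 6.48, 6.59 and 6.21 in N4 plus corticosteroid, a rise of 1.48 ± 0.20 (limma, adjusted p = 0.0370). It follows Celf2, an RNA-binding splicing regulator of T cells, in the numbering. TC1300000008 had 8.83, 8.87 and 8.81 in Y3 plus corticosteroid and 7.89, 7.85 and 8.03 in N4 plus corticosteroid. It rose by 0.91 ± 0.09 (adjusted p = 0.0218), and is numbered between Gdi2, at -0.10, and Asb13, at 1.04. TC1600001116, an intergenic transcript, had 10.32, 10.10 and 10.01 in Y3 plus corticosteroid and 9.14, 9.37 and 9.10 in N4 plus corticosteroid, a rise of 0.94 ± 0.14 (adjusted p = 0.0468). It is numbered before Crebbp, a histone acetyltransferase, which differed by 0.65.

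These calls depended on single arrays. The count was 0 without N4 plus corticosteroid replicate 1, 2 or 3 and without Y3 plus corticosteroid replicate 2 or 3, and 9 without Y3 plus corticosteroid replicate 1. It was 1 without N4 replicate 2 or Y3 replicate 3, 2 without Y3 replicate 2 and 3 without N4 replicate 3, arrays that enter through the shared estimate of the spread. An unadjusted p under 0.05 was found for 959 members, where 10.8% of all clusters had one.

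With the replicate number as a block, 794 members (28.3%) were called, 770 higher and 24 lower in Y3 plus corticosteroid. The block rests on a pairing taken from these same arrays, which the labels do not state. Over all clusters the same fit called 3700 (5.61%), with 3.81% higher and 1.8% lower, and over clusters with a symbol at 6.5 or more it called 14.5%. Of the 2408 members at 6.5 or more in every group, 650 were called higher and 18 lower. Counting each distinct profile once, 564 were called higher and 24 lower of 2530. The count was 482, 450 and 429 without N4 plus corticosteroid replicates 1, 2 and 3, and 460 and 350 without Y3 plus corticosteroid replicates 1 and 2. All arrays of the 2 groups were separate for 983 members in the higher direction, where 9.82% of all clusters were, and for 44 in the lower direction, where 6.71% were.

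The classes are given side by side, with no test between them. Over all clusters 3.81% were called higher and 1.8% lower in the blocked fit, and 53.6% were above 0. The 392 small RNAs of repeats had a median difference of 1.17, with 234 called higher in the blocked fit and 0 lower, but that median rested on copies of shared profiles. Over their 133 distinct profiles the median was 0.28, with 88 above 0 and 30 called higher. Sense transcripts without exon overlap had a median of 0.42, with 278 of 1184 called higher and 3 lower. Intergenic transcripts had medians of 0.39 in the Luo catalogue (90 of 383 higher, 6 lower) and 0.24 in NONCODE (111 of 562 higher, 11 lower). Antisense transcripts had a median of 0.27, with 26 of 184 higher and 0 lower. Each of these medians was above 0 in every replicate pair. Among the 50 cDNAs and other entries the median was 0.10, with 8 higher and 3 lower.

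**Figure D2:**
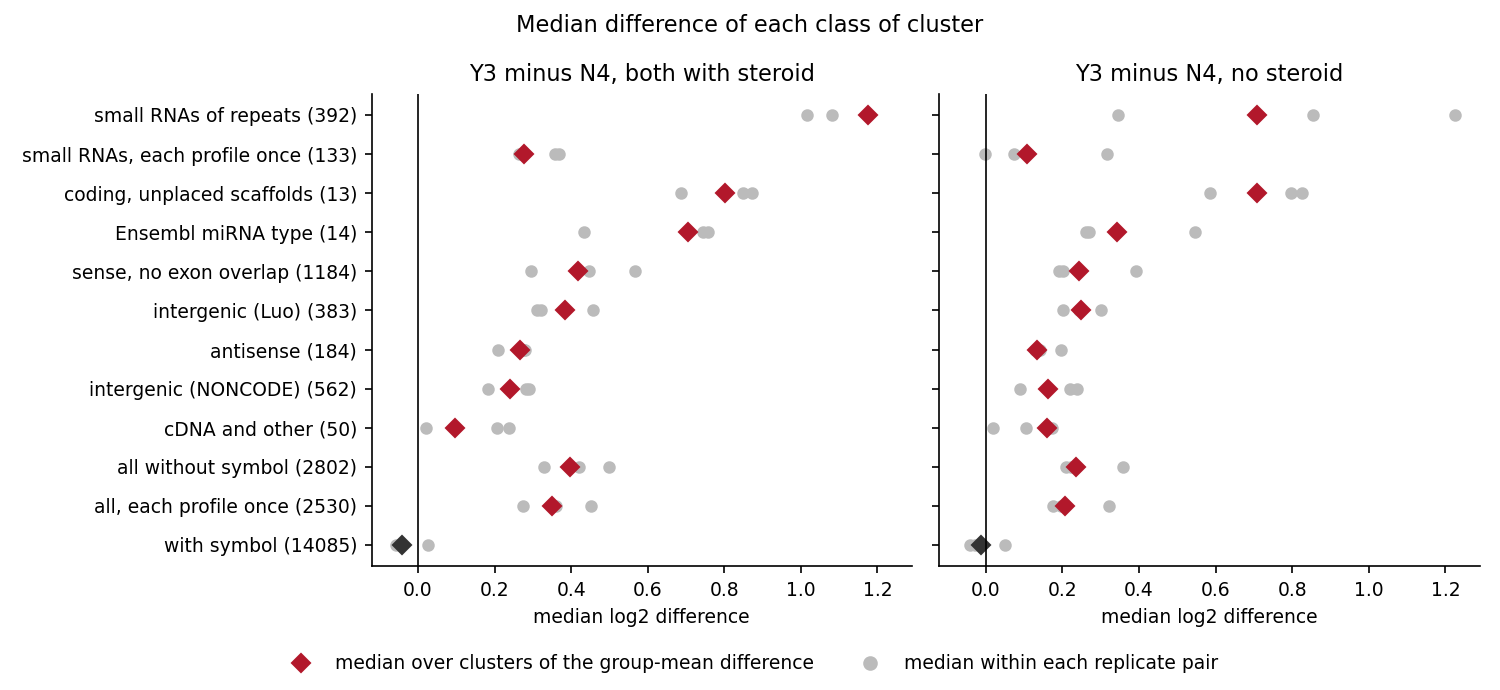
Median log2 difference (horizontal axis) of each class of member and of the clusters with a symbol, for Y3 minus N4 with corticosteroid (left) and without it (right); diamonds are medians of the group-mean differences, grey points the medians within each replicate pair, and the number of clusters is in parentheses. Small RNAs of repeats lie at 1.17 (left) and 0.71 (right) over all entries and at 0.28 and 0.11 with each profile counted once, and clusters with a symbol lie near 0. Y3 and N4 without corticosteroid (right) missed the pairing rule.

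Several of the largest differences belonged to members numbered beside genes that differed as well. TC0100001633 had 12.21, 13.14 and 11.97 in Y3 plus corticosteroid, against 7.89, 10.64 and 8.12 in N4 plus corticosteroid, a difference of 3.56 ± 0.80 (limma, adjusted p = 0.130). With the block it rose with an adjusted p of 0.00246 and an SE of 0.41. Each value after ± is from the fit without the block, unless the block is named with it. It is numbered between Pyhin1 and Pydc3, interferon-inducible members of the PYHIN family of nucleic acid sensors, which differed by 3.59 and 4.603. TC1100001240 had 9.98, 11.79 and 10.54 in Y3 plus corticosteroid and 7.03, 9.56 and 8.88 in N4 plus corticosteroid, a difference of 2.28 ± 0.89, and with the block it rose (limma, SE 0.30, adjusted p = 0.00392). It follows Slfn1, a Schlafen gene of the T lineage linked to growth control, which differed by 2.59. The groups did not overlap for either member, which the choice of TC0100001633 required.

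TC0100003596, an intergenic transcript, had the smallest blocked p of the named members. It had 9.06, 10.96 and 10.83 in Y3 plus corticosteroid, against 5.48, 7.80 and 7.53 in N4 plus corticosteroid. The signal of 5.48 lay under the average of the brightest background control, so the size of that pair's difference is uncertain. The replicates of each group spread widely, and the difference of 3.35 ± 0.85 was 3.58, 3.16 and 3.31 within pairs. It rose in the blocked fit (limma, SE 0.10, adjusted p = 2.5e-06), beside 3.02 for Gm16340, numbered before it. TC1900001166, an intergenic Luo transcript, had 7.96, 10.42 and 10.81 in Y3 plus corticosteroid and 5.86, 7.55 and 6.30 in N4 plus corticosteroid (3.16 ± 0.96, with the block SE 0.52 and adjusted p = 0.00861). Its neighbours in number, A330040F15Rik and Gm16274, averaged 4.22 and 5.09 and differed by 0.20 and -0.08, so neither reached the level of the members.

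TC1000001692 and TC1000001693, antisense transcripts numbered after Ipcef1, moved together. TC1000001692 had 10.23, 11.64 and 11.45 in Y3 plus corticosteroid and 6.90, 9.003 and 8.74 in N4 plus corticosteroid (2.89 ± 0.85). TC1000001693 had 8.60, 9.57 and 9.14 in Y3 plus corticosteroid and 5.73, 7.15 and 6.84 in N4 plus corticosteroid (2.53 ± 0.48). Its signal of 5.73 lay at the level of the brightest background control. Both members rose in the blocked fit (limma, SE 0.28 and 0.24, adjusted p = 0.00142 and 0.00131), and Ipcef1 differed by 2.25. TC0700004005 had 12.45, 13.70 and 13.24 in Y3 plus corticosteroid and 10.23, 11.40 and 10.66 in N4 plus corticosteroid, a difference of 2.37 ± 0.45, and it rose in the blocked fit (SE 0.26, adjusted p = 0.00218). Its lower-numbered neighbour Gm17757 also differed by 2.37.

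Lower signals in Y3 plus corticosteroid were rare among the members. TC0500001883, an Ensembl entry of antisense type at chr5:3473071-3473178 on the minus strand (GRCm38, 108 bases), lies within Cdk6, a cell cycle kinase on the plus strand. It had 5.10, 4.78 and 4.54 in Y3 plus corticosteroid, against 9.64, 6.53 and 6.23 in N4 plus corticosteroid. Its Y3 plus corticosteroid arrays lay under the brightest background control, so no difference is given, and N4 plus corticosteroid replicate 1 lay far above the other arrays of its group. TC0200003843, an intergenic transcript, had 11.02, 9.63 and 9.30 in Y3 plus corticosteroid and 11.83, 11.48 and 11.53 in N4 plus corticosteroid (-1.63 ± 0.41, with the block SE 0.24 and adjusted p = 0.00479).

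Some fallers stood beside genes that also differed. TC0800000417, numbered after Dusp4, a phosphatase that switches off MAP kinases after receptor signalling, had 8.22, 7.31 and 7.36 in Y3 plus corticosteroid and 10.69, 7.95 and 10.39 in N4 plus corticosteroid. Its difference was -2.04 ± 0.68 and it fell in the blocked fit (limma, SE 0.47, adjusted p = 0.0337), beside -2.65 for Dusp4, and the groups overlapped through N4 plus corticosteroid replicate 2. TC0600002566 follows Mthfd2, which encodes a folate enzyme of mitochondria, and had 7.41, 7.41 and 7.66 in Y3 plus corticosteroid and 8.72, 7.88 and 8.80 in N4 plus corticosteroid. It fell by 0.98 ± 0.18 in the blocked fit (limma, adjusted p = 0.0155), beside -1.61 for Mthfd2. TC0200003531 had 5.80, 5.73 and 5.86 in Y3 plus corticosteroid and 7.80, 6.64 and 6.68 in N4 plus corticosteroid and precedes Arl5a, which differed by -0.84. Its Y3 plus corticosteroid arrays lay at the level of the brightest background control, so no difference is given. TC0700003781, before A630091E08Rik (-1.35), differed by -1.14 ± 0.25 (with the block, SE 0.23 and adjusted p = 0.0206), and TC0700000955, after Gm7367 (-1.15), by -1.11 ± 0.33 (with the block, SE 0.27 and adjusted p = 0.0424).

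TC0600002011, an intergenic Luo transcript on chromosome 6, is numbered directly after the clusters of Mir29a and Mir29b-1. These genes encode miR-29, a microRNA family known in T cells for limiting interferon-gamma production. The mature microRNAs of the neighbouring genes are shown for their shared seed, bases 2 to 8 in capitals, 5′ to 3′ from RefSeq on GRCm38.p6, at chr6:31062673-31062694 and chr6:31063025-31063047, both on the minus strand.
mmu-miR-29a-3p: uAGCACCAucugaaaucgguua
mmu-miR-29b-3p: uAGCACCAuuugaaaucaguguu
The cluster had 6.86, 6.83 and 6.89 in Y3 plus corticosteroid and 8.34, 8.03 and 7.49 in N4 plus corticosteroid. It fell by 1.09 ± 0.27 in the blocked fit (limma, adjusted p = 0.0431, against 0.180 without the block), or 2.13-fold. The cluster of Mir29b-1 averaged 5.61, under the level of the members, and differed by -0.06. The sequences of the members themselves were not used here.

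**Figure D3:**
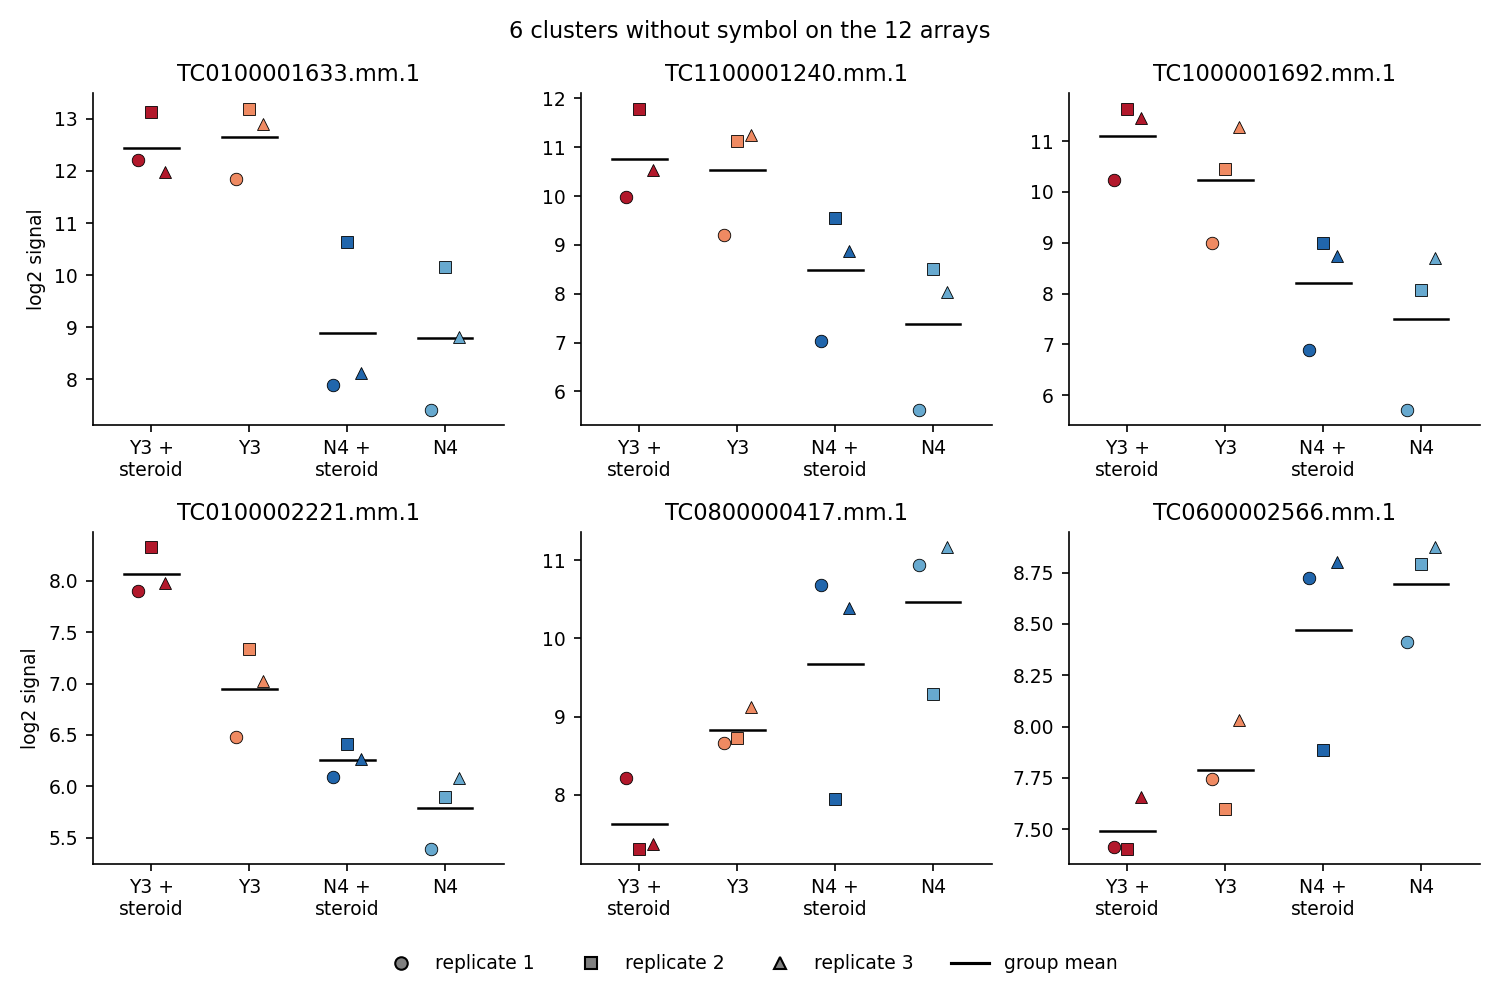
Log2 signal (vertical axis, a separate scale per panel) of 6 members on the 12 arrays, with a shape per replicate number and a line at the group mean. In the first 4 panels both Y3 groups lie above both N4 groups on average, and in the last 2 they lie below.

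Sense transcripts without exon overlap could be set against the symbol cluster that precedes them in the numbering. The numbers follow the genome: of 31626 symbol clusters matched to RefSeq (GRCm38.p6), 99.7% lay on the chromosome of their identifier and 98.4% of neighbours on a strand had ascending starts. An expressed preceding symbol cluster was present for 1018 of the 1184. For Y3 plus corticosteroid minus N4 plus corticosteroid the members had a median of 0.43 and the preceding clusters 0.09, and the member was above its preceding cluster in 852 (83.7%). Across these 1018 pairs Pearson's r was 0.704 and Spearman's rho 0.630, as a description over clusters that share the same arrays and in part the same preceding gene. With the symbol cluster that follows in the numbering, r was 0.186 over 465 pairs, and the member was above it in 371 (79.8%). For Y3 plus corticosteroid minus Y3 alone, the medians were 0.19 and -0.01, the member was above in 829, and r was 0.552. The members' differences thus followed those of the preceding gene in order. They lay above those of the preceding and of the following cluster alike in most pairs, so lying above was not particular to the preceding gene.

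**Figure D4:**
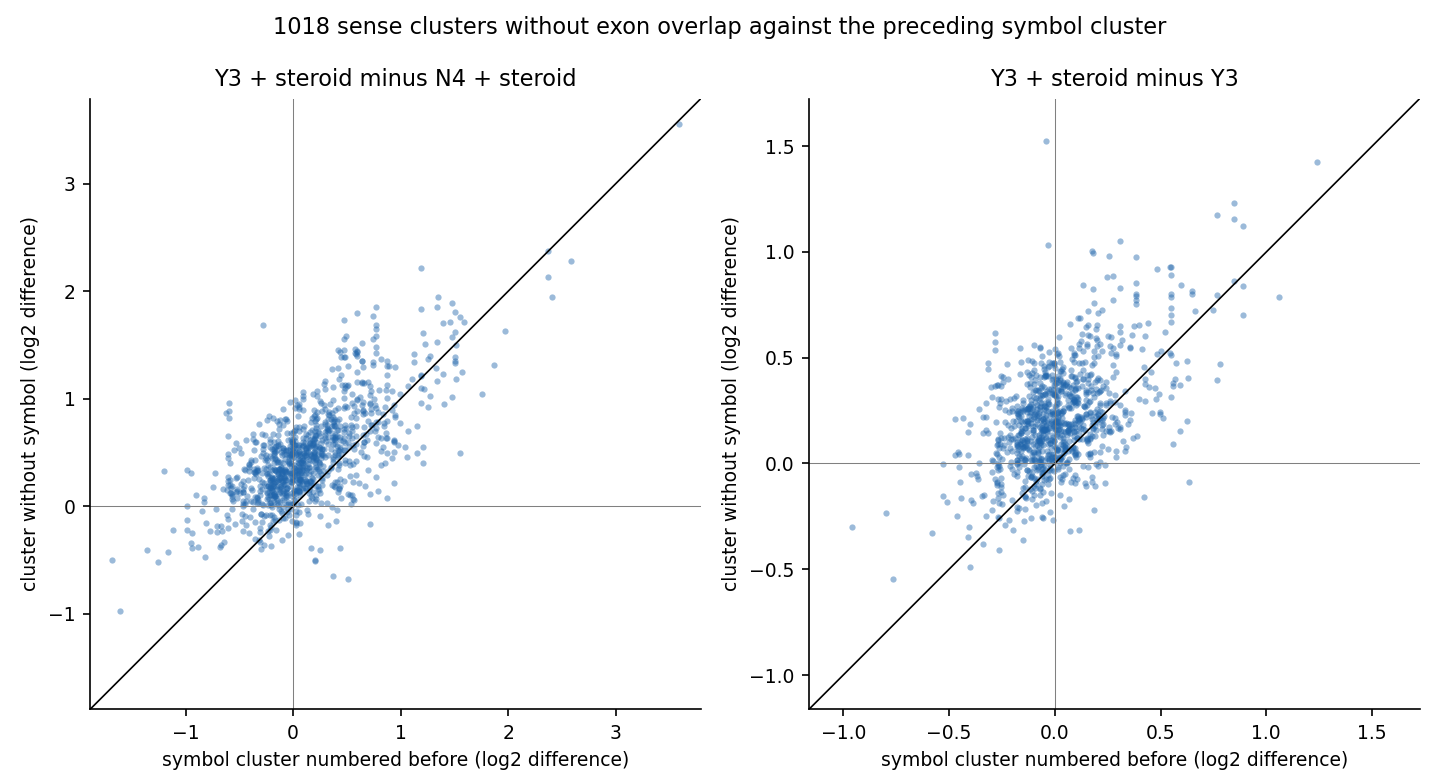
Log2 difference of each of 1018 sense members without exon overlap (vertical axis) against that of the symbol cluster numbered before it (horizontal axis), for Y3 plus corticosteroid minus N4 plus corticosteroid (left) and Y3 plus corticosteroid minus Y3 alone (right); the diagonal marks equality. Most points lie above the diagonal, 852 on the left and 829 on the right.

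A run of 3 or more members followed 86 symbol clusters and held 370 members. With the block, 3.81% of all clusters and 27.5% of the members were called higher. After Celf2, 6 members had differences between Y3 plus corticosteroid and N4 plus corticosteroid of 1.42 to 1.85, with a median of 1.62, all 6 called higher with the block, while Celf2 differed by 0.77. After Arhgap15, which encodes a regulator of Rac signalling, 8 members had 0.88 to 1.44, with 7 called higher, beside 0.60 for the gene. After Satb1, a chromatin organiser of the T lineage, 6 members had a median of 1.15, with 3 called, beside 0.47 for the gene. Only 4 of these 6 were sense members.

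Other runs lay higher than a gene that was near 0, only moderately higher or, for Osbpl8, lower. Beside the counts below, the blocked fit called 5.61% of all clusters and 28.3% of the members. Themis, which tunes T cell receptor signalling in thymocytes, differed by 0.05, and its 6 following members by 0.51 to 0.95, with 4 called higher. Dock10 differed by 0.02 and its 6 members by 0.28 to 0.99, with 0 called. Elmo1, a partner of Dock proteins, differed by 0.10 and its 5 members had a median of 0.89, with 1 called. Tcf12, a transcription factor of the E protein family, differed by 0.48 and its 8 members had a median of 0.84, with 3 called. After Osbpl8, a lipid transfer protein, 6 members had a median of 0.13 with 0 called, while the gene differed by -0.47. The 3 longest runs, of 29, 20 and 17 members after Il22, D10Wsu102e and Rap1b, held 0, 0 and 1 sense members, so they are not read against those genes. The lowest member of the runs after Il22 and Rap1b had the same values in both runs. Their medians were 0.13, -0.06 and 0.20, with 0, 1 and 1 called.

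The differences of the small RNAs of repeats lay in a few large families, whose entries are mostly copies of a few profiles. With the block, 3.81% of all clusters were called higher. The 64 members named oocyte_piRNA2705 held only 7 distinct profiles, had a median difference of 1.26 between Y3 plus corticosteroid and N4 plus corticosteroid, and 62 were called higher with the block. The family oocyte_piRNA3856 had 51 members in 8 profiles, a median of 1.26 and 51 called. The family oocyte_piRNA469 had 39 members in 5 profiles with 1.21 and 39 called, and oocyte_piRNA1525 had 26 members in 3 profiles with 1.39 and 26 called. In 3 of the 10 families with 5 or more members none was called. The 8 members of oocyte_clustered_small_RNA5214, a single profile, differed by 0.36 with 0 called, and the 7 of oocyte_clustered_small_RNA5256, also a single profile, by 0.13 with 0 called.

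One profile was shared by 63 members of 4 families. It had 10.27, 11.22 and 10.76 in Y3 plus corticosteroid, against 9.04, 10.03 and 9.42 in N4 plus corticosteroid, a difference of 1.26 ± 0.35 (limma, adjusted p = 0.181, with the block SE 0.17 and adjusted p = 0.00392). Without corticosteroid it had 9.95, 10.59 and 11.04 in Y3 and 9.08, 9.89 and 9.58 in N4, a difference of 1.01. The next largest profiles, shared by 35, 30, 20 and 18 members, differed by 1.17, 1.27, 1.42 and 1.33 under corticosteroid. Each of these profiles counts as a single measurement.

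Retroelements themselves were mixed. TC0200003508, an endogenous retrovirus long terminal repeat, averaged 14.30 ± 0.89 in Y3 plus corticosteroid and 13.31 ± 0.68 in N4 plus corticosteroid (SD, n = 3 each), and rose by 0.99 ± 0.13 (SE) in the blocked fit (limma, adjusted p = 0.00392). TC1000000618, described as ORF2 of LINE-1, the enzyme that copies this transposon, rose by 0.72 ± 0.15 (with the block, adjusted p = 0.0260), and a further ORF2 entry, TC0700000084, differed by 0.63 ± 0.19 (with the block, adjusted p = 0.10). TC0500002855, a cDNA of Gag type, rose by 0.78 ± 0.19 (with the block, adjusted p = 0.0395). The early transposon and transposon-like entries differed by -0.46 to 0.25 with none called, and the B2 repeat entry TC1500000372, at 16.87, differed by -0.14. Of the 11 retroelement entries 3 were called, all higher, where 3.81% of all clusters were called higher with the block.

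T cell receptor segments did not pass the test. TC0600002151, a beta chain entry, averaged 9.93 and differed by 0.30 ± 0.19 between Y3 plus corticosteroid and N4 plus corticosteroid. TC1400000709, an alpha chain variable entry, averaged 8.38 and differed by 0.71 ± 0.18 (limma with the block, adjusted p = 0.0545). TC1400000716, a delta chain entry, averaged 7.21 and differed by 0.01. The 4 mitochondrial members averaged 13.07 to 16.13 and differed by -0.49 to 0.25.

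Protein-coding Ensembl entries on unplaced scaffolds had a median difference of 0.80 under corticosteroid, with 11 of 13 above 0 and 9 called higher with the block. The largest differences among them were 1.35 ± 0.18 and 1.22 ± 0.15 (limma with the block, adjusted p = 0.00392 and 0.00286). Entries of Ensembl miRNA type had a median of 0.70, with 14 of 14 above 0 and 11 called higher. For 8 of the 11 with a chromosome, the chromosome in the description differed from that in the identifier, so the locus they measured is uncertain. Over all clusters 53.6% were above 0 and 3.81% were called higher with the block.

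Without corticosteroid the members again ran higher with Y3, by less. The median difference, Y3 minus N4, was 0.24, with 2213 of 2802 (79.0%) above 0 against 53.8% of all clusters. Between same-numbered arrays, which missed the pairing rule here (0.0736 in replicate 2), the median was 0.36, 0.21 and 0.22. The median over all members was 0.087 without N4 replicate 1, 0.14 without Y3 replicate 3 and 0.39 without N4 replicate 3. Limma called 0 members, where it called 11 of all clusters (0.0167%), and 499 members had an unadjusted p under 0.05, where 7.94% of all clusters did. The arrays were separate for 403 members in the higher direction and 36 in the lower, where 6.04% and 4.91% of all clusters were. Small RNAs of repeats had a median of 0.71 over all entries and 0.11 over distinct profiles, sense transcripts without exon overlap 0.24 and antisense transcripts 0.13. The NK list mean was 6.03 to 6.11 in Y3 arrays and 5.08 to 5.35 in N4 arrays, with Eomes at 2.40, Klrb1c at 0.29 and Ncr1 at -0.02. Of the B cell markers 5 of 6 were above 0, Cd79b at 0.68, with list means of 4.80 to 5.01 in Y3 arrays and 4.65 to 4.91 in N4 arrays. Of the CD8 T cell markers 7 of 8 were above 0. The negative controls differed by 0.17, 0.03 and 0.13 between same-numbered arrays. The part of these in the members' difference was not tested.

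The members with the largest differences were mostly those named above. TC0100001633 had 11.85, 13.20 and 12.89 in Y3, against 7.42, 10.16 and 8.82 in N4, a difference of 3.85 ± 0.80 (limma, adjusted p = 0.224). TC1100001240 had 9.21, 11.14 and 11.25 in Y3 and 5.62, 8.50 and 8.03 in N4 (3.15 ± 0.89, adjusted p = 0.401), and Slfn1 differed by 3.24. TC0100003596 had 8.60, 10.65 and 10.57 in Y3 and 5.31, 7.47 and 7.50 in N4 (3.18 ± 0.85, adjusted p = 0.372). These 3 members were named for groups that do not overlap. In each of them the first replicate of either group was the lowest. The N4 signals of 5.62 for TC1100001240 and 5.31 for TC0100003596 lay under the average of the brightest background control. The sizes of their differences are therefore uncertain. TC1900001166 differed by 3.29 ± 0.96, TC1000001692 by 2.75 ± 0.85 and TC1100002647, which precedes 9930111J21Rik2 (1.64), by 2.06 ± 0.57. Lower in Y3 were TC0600002011 after Mir29b-1, with 6.46, 6.25 and 7.02 in Y3 and 8.47, 7.39 and 7.96 in N4 (-1.36 ± 0.29, adjusted p = 0.238), TC0700003781 (-1.05 ± 0.25) and TC0600002566 (-0.90 ± 0.23). TC0900001143 differed by -0.43 ± 0.13, although Bcl2a1a, a survival gene numbered before it, differed by 0.82. TC1800000844, a bright intergenic transcript at 15.77, differed by -0.42 ± 0.15.

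Corticosteroid in N4-primed cells gave no settled shift of the members. The median difference, N4 plus corticosteroid minus N4, was 0.02, with 0.12, 0.06 and -0.09 within pairs, and 1589 members (56.7%) were above 0, against 52.2% of all clusters. Limma called 0 of 2802 members and 0 of 65956 clusters (0.0%), and with the block it called 0 members and 1 cluster (0.00152%). An unadjusted p under 0.05 was found for 26 members, where 2.15% of all clusters had one.

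The largest separated differences are given as values. TC1700001758, the first of a run after Fkbp5, a textbook target of corticosteroids whose product holds back their receptor, had 7.77, 8.65 and 7.98 in N4 plus corticosteroid, against 7.06, 7.41 and 6.63 in N4 (1.10 ± 0.35). TC1900000375, an intergenic transcript, had 8.21, 8.13 and 8.04 in N4 plus corticosteroid and 7.35, 7.33 and 7.45 in N4 (0.75 ± 0.18). TC0400001511, after the ubiquitin ligase gene Rnf19b, had 8.19, 8.32 and 7.80 in N4 plus corticosteroid and 7.41, 7.44 and 7.60 in N4 (0.62 ± 0.27). All 3 were chosen for groups that do not overlap, which makes every pair higher, and limma gave an adjusted p of 1.00. On the lower side, TC0900000990 differed by -0.36 ± 0.18, beside -0.52 for Rab27a, a gene of lytic granule release, TC1900000920 by -0.32 ± 0.14 and TC0700003781 by -0.23 ± 0.25.

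Corticosteroid in Y3-primed cells was accompanied by a higher median of the members. The difference, Y3 plus corticosteroid minus Y3, had a median of 0.18 and was above 0 for 2273 of 2802 (81.1%), against 0.01 and 53.4% over all clusters and -0.03 over clusters with a symbol at 6.5 or more. It was 0.21 and 0.34 in replicate pairs 1 and 2 and -0.02 in pair 3, and it ranged from 0.066 without Y3 replicate 1 to 0.31 without Y3 replicate 3. The negative controls differed in the same pairs by 0.10, 0.32 and -0.05, and their part in the members' difference was not tested. Limma called 0 members and 0 clusters (0.0%), with the block 0 members and 2 clusters (0.00303%), and 127 members had an unadjusted p under 0.05, where 3.61% of all clusters did.

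The 3 members after Fkbp5 are given beside the gene, and of them only TC1700001760 was named for its difference in Y3-primed cells. TC1700001758 had 7.95, 9.11 and 9.08 in Y3 plus corticosteroid, against 7.60, 7.15 and 7.93 in Y3 (1.15 ± 0.35). TC1700001759 had 6.85, 7.47 and 7.25 in Y3 plus corticosteroid and 6.67, 6.05 and 6.26 in Y3 (0.86 ± 0.27), and in N4-primed cells it differed by 0.49 ± 0.27. TC1700001760 had 7.58, 8.14 and 8.10 in Y3 plus corticosteroid and 6.90, 6.33 and 6.89 in Y3 (1.23 ± 0.30). Fkbp5 itself had 9.10, 9.35 and 9.37 in Y3 plus corticosteroid and 8.86, 8.16 and 8.26 in Y3 (0.85 ± 0.33), and 8.78, 9.61 and 8.47 in N4 plus corticosteroid and 8.68, 8.81 and 7.81 in N4 (0.52 ± 0.33). The gene and its 3 following members were thus all higher on average with corticosteroid under both peptides, and none passed the test (limma with the block, adjusted p = 0.592, 0.518, 0.580 and 0.287 for Fkbp5 and the members in order, in Y3-primed cells). TC1700001759 averaged 6.05 in N4 and 6.33 in Y3, so its corticosteroid groups carried it over the line of 6.5. Its higher mean with corticosteroid is therefore in part fixed by the choice, and it differed by -0.25 in N4 pair 1. TC1700001760 averaged 6.42 in N4, also under the line.

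**Figure D5:**
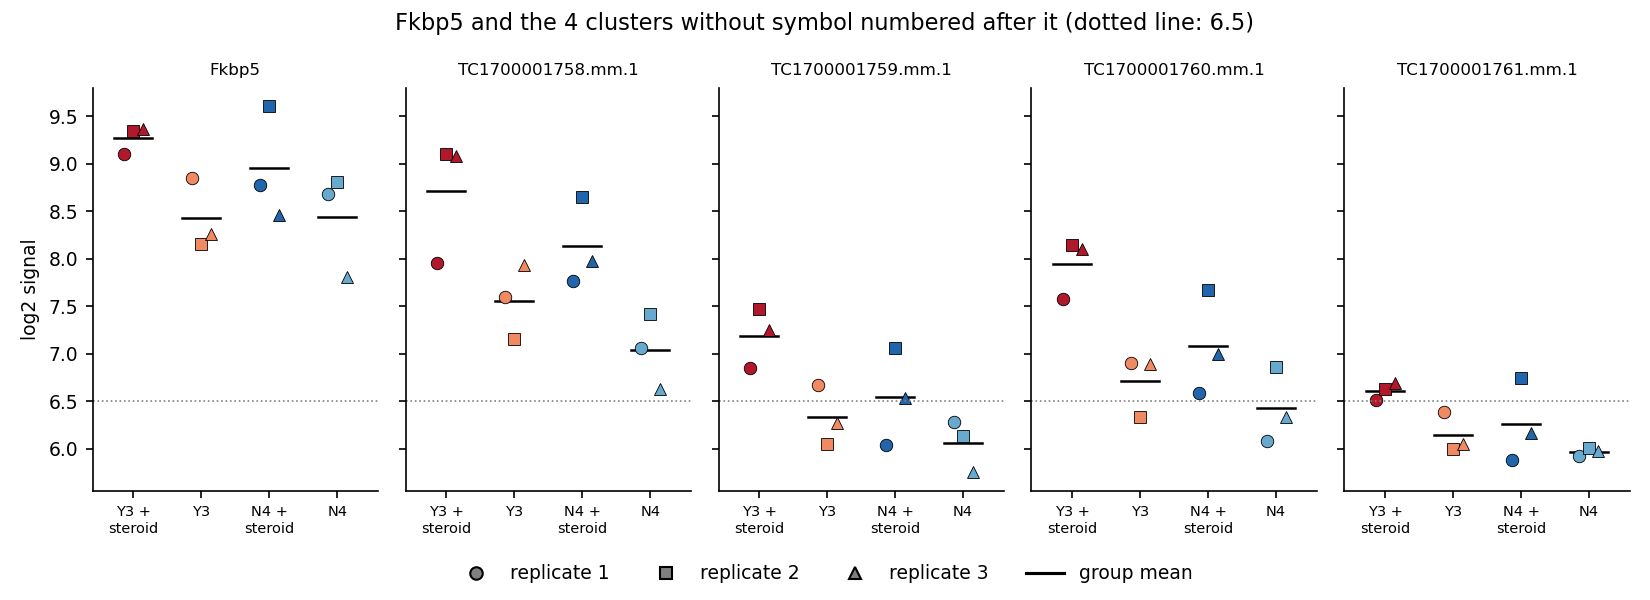
Log2 signal (vertical axis) of Fkbp5 and of the 4 clusters without a symbol numbered after it on the 12 arrays, with a shape per replicate number, a line at the group mean and a dotted line at 6.5. The first 3 clusters after Fkbp5 are members, the fourth (mean 6.24) is not, and in all 5 panels the corticosteroid groups have the higher mean under each peptide.

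Other members with separated groups in Y3-primed cells are given as values. TC1800001495, a small RNA of repeats, had 7.32, 7.82 and 7.41 in Y3 plus corticosteroid and 6.64, 5.38 and 5.50 in Y3 (1.67 ± 0.36, limma with the block, adjusted p = 0.287). Its Y3 signals of 5.38 and 5.50 lay under the average of the brightest background control, so the size of its difference is uncertain. TC0400003238 had 7.42, 9.05 and 8.01 in Y3 plus corticosteroid and 6.18, 6.96 and 7.07 in Y3 (1.43 ± 0.45, with the block adjusted p = 0.122), beside 1.24 for Zyg11b, which it follows. Both were chosen for groups that do not overlap, which makes every pair higher. Lower were TC0800000417 after Dusp4, with 8.22, 7.31 and 7.36 in Y3 plus corticosteroid and 8.66, 8.72 and 9.12 in Y3 (-1.20 ± 0.68, beside -1.45 for Dusp4), TC1300002746 (-0.78 ± 0.58) and TC1900000179 (-0.65 ± 0.20).

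The difference between the corticosteroid effects, that in Y3-primed minus that in N4-primed cells, had a median of 0.15 over the members, with 74.0% above 0 against 51.0% of all clusters. Limma called 0 members and 0 clusters (0.0%), with and without the block, and 34 members had an unadjusted p under 0.05, where 2.21% of all clusters did. The largest positive values were 1.08 ± 0.66 for TC1600001672, 1.02 ± 0.64 for TC0400003238 and 0.97 ± 0.79 for TC1700000918. With an array left out they were as low as 0.59 (without N4 replicate 3), 0.58 (without Y3 plus corticosteroid replicate 2) and 0.50 (without N4 plus corticosteroid replicate 1). TC1700000918, which follows Ccnd3, a cyclin that drives entry into the cell cycle, had 7.56, 9.18 and 9.08 in Y3 plus corticosteroid, 6.44, 7.13 and 7.67 in Y3, 5.98, 7.37 and 7.43 in N4 plus corticosteroid and 5.51, 6.61 and 6.99 in N4. It was higher with corticosteroid in 6 of 6 pairs, while Ccnd3 differed by -0.04 in Y3-primed and -0.38 in N4-primed cells. The N4 signal of 5.51 for TC1700000918 lay under the average of the brightest background control. The largest negative values were -0.87 ± 1.26 for TC1100001240, -0.82 ± 0.73 for TC1200001894 and -0.74 ± 2.07 for TC1900001094. The first was 0.015 without N4 replicate 1, the second -0.33 without N4 replicate 3 and the third 0.40 without Y3 replicate 1, so neither the first nor the third kept its sign.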

How the data were processed

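RNA of 12 samples was measured on Affymetrix mouse transcriptome arrays. The deposited intensity values were made by the authors as a gene-level RMA-type summary on a linear scale (SST-RMA per the file headers, RMA without a version per the submitters' processing notes), so the design's log2 scale was reached by taking log2, with no pseudocount or further scaling. The sources used here name no genome build for the array. Both deposited tables held identical values, which tied the coded columns to samples. The members and lists were chosen with earlier results of these data known.

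All 65956 clusters were fitted with limma 3.58.1 (R 4.3.3), as 4 group means over 12 arrays, 8 residual degrees of freedom, two-sided, Benjamini-Hochberg over all clusters, threshold 0.05. The fits were tested on simulated data with planted changes. The simulated noise was independent, with the same spread for every cluster and no replicate or array effect, so it cannot test the pairing behind the block. Replicate numbers were taken to pair groups where every same-numbered pair of arrays correlated over 0.1 in deviations from group means. This held for N4 plus corticosteroid with N4 (0.727, 0.529, 0.727), Y3 plus corticosteroid with Y3 (0.670, 0.377, 0.421) and Y3 plus corticosteroid with N4 plus corticosteroid (0.511, 0.249, 0.210), not for Y3 with N4 (0.609, 0.0736, 0.371). It also held for Y3 with N4 plus corticosteroid (0.647, 0.127, 0.348) and for Y3 plus corticosteroid with N4 (0.502, 0.153, 0.175). The block put the same replicate terms on all 4 groups, so both peptide contrasts of a blocked fit rest on the same pairing. Blocked fits left 6 residual degrees of freedom. Standard errors are those of the unblocked fit unless the block is named.

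Members were named as the 10 brightest, up to 6 called per direction, comparison and fit with separate groups, else the 3 largest separated differences, and 3 on either side of the line. Neighbours by number, runs and class members were added after values were seen. Alternatives were the block, median centring, quantile normalization, an intensity trend, array weights, expressed clusters only, 2 groups only, other level rules and each array left out. The number of arrays limits precision.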

Additional observations from a re-analysis of the deposited data

Results flagged for a closer look

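For 3 named members every N4 pair moved one way and every Y3 pair the other with corticosteroid. TC0900000990, after Rab27a, had paired differences of 0.15, 0.47 and 0.10 in Y3-primed cells and -0.58, -0.14 and -0.37 in N4-primed cells, a difference between effects of 0.60 ± 0.25 (log2, SE). TC1300000008 had 0.54, 0.54 and 0.29 in Y3-primed cells and -0.05, -0.11 and -0.08 in N4-primed cells, a difference of 0.53 ± 0.13. TC1600001672 had 1.09, 0.65 and 0.04 in Y3-primed cells and -0.60, -0.23 and -0.61 in N4-primed cells, a difference of 1.08 ± 0.66. By the limma interaction term all 3 had an adjusted p of 1.00, with and without the block. The paired effects of the peptides did not overlap for 9.99% of the members and 10.2% of all clusters. That is a wider condition, and the share with opposite directions was not counted. TC0900000990 was named for lower, separate N4 plus corticosteroid arrays and TC1600001672 for separate paired effects, so part of their pattern was fixed by the choice.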

How the results depend on the processing

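Y3 and N4 arrays without corticosteroid missed the pairing rule in replicate 2 (0.0736). For them the replicate block gave 340 called members in place of 0 (333 higher, 7 lower, 2.28% of all clusters), or 210 distinct profiles. With an array left out, that count ran from 39 to 421 (91, 39 and 103 without N4 replicates 1, 2 and 3, and 121 and 207 without Y3 replicates 1 and 3), and the unblocked count from 0 to 1. For Y3 plus corticosteroid minus N4 plus corticosteroid the count of 5 became 794 with the block, 83 with array weights (0.449 to 2.94), 8 with quantile normalization, 3 with an intensity trend, 2 at the 7.0 level or with all 4 group means at 6.5 or more, and 0 with only the arrays of the 2 groups, and ran from 0 to 9 with an array left out (350 to 910 with the block: 482, 450 and 429 without N4 plus corticosteroid replicates 1, 2 and 3, 460 and 350 without Y3 plus corticosteroid replicates 1 and 2). The corticosteroid and interaction counts stayed at 0 under all of these that were run, and the fit with only 2 groups was not run for the interaction.

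With an array left out, the medians ran from -0.13 to 0.16 for corticosteroid in N4 (negative without N4 plus corticosteroid replicate 2 at -0.0074 or 3 at -0.022, or N4 replicate 1 at -0.13), 0.066 to 0.31 for corticosteroid in Y3, 0.087 to 0.39 for Y3 minus N4, 0.30 to 0.49 for that contrast under corticosteroid and 0.024 to 0.31 for the interaction. Of the interaction values, 2 turned positive: TC1100001240 (-1.60 to 0.015) at 0.015 without N4 replicate 1, and TC1900001094 (-2.02 to 0.40) at 0.062, 0.35, 0.041 and 0.40 without N4 plus corticosteroid replicate 1, N4 replicate 3, Y3 plus corticosteroid replicate 3 and Y3 replicate 1. The cause was not tested. Of 914 alternative values of 46 results on named members, 830 kept their direction and side of the threshold, 49 lost and 30 gained a call.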
